A study of Mus musculus with 24 samples.

Results

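The miR-15 family is a group of miRNAs that share the same seed, the stretch of bases 2 to 8 from the 5′ end with which a miRNA pairs to its target mRNAs. The array carried 611 mouse miRNAs, and the 6 members described here were those listed by the scanner files as mmu-miR-15a, mmu-miR-15b, mmu-miR-16, mmu-miR-195, mmu-miR-322 and mmu-miR-497 (mmu for mouse), without their star (passenger) strands. They were measured in lung tissue of mice with the SP-C/c-raf transgene and of wild type mice on 24 arrays of 1 colour, with 6 arrays in each of 4 groups: transgenic males (M c-Raf), transgenic females (F c-Raf), wild type males (M WT) and wild type females (F WT). Per the labels, the transgenic animals were cRaf overexpressing, all animals were 4 to 6 months old, and cells were microdissected from frozen sections before total RNA was extracted. In the transgene, an activated c-Raf-1 lacking its amino-terminal part is driven by the promoter of surfactant protein C, a gene of alveolar type II cells, so that the kinase is directed to a part of the lung epithelium. The wild type animals carried no transgene, and no other allele or agent is given for any group. The labels do not say which cells were dissected. They call the tissue lung adenocarcinoma in all 4 groups, wild type included, whereas the protocol describes the wild type tissue as normal lung. In such tissue RNA, fewer cells of a type and less RNA per cell cannot be told apart.

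Members of this family are known as brakes of the cell cycle. They repress cyclins of the D and E type and the kinases that these activate, and with them the passage from the first gap phase into DNA synthesis. They also repress Bcl2, an inhibitor of apoptosis. The genes lie in pairs that are transcribed together: miR-15a and miR-15b each next to a copy of miR-16, miR-195 next to miR-497, and miR-322, the mouse counterpart of human miR-424, next to miR-503.

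The mature sequences, matched by name to RefSeq (build GRCm38.p6), are shown because they define the family. All 6 members matched an entry, as the guide (5p) strand, and the seed is in capitals.
miR-15a: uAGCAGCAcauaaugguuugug
miR-15b: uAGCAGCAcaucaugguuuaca
miR-16: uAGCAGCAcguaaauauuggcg
miR-195: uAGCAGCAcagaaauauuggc
miR-322: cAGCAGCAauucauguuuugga
miR-497: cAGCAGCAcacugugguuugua
The seed AGCAGCA stood in bases 2 to 8 of 10 of the 1679 mature miRNA names of the RefSeq table, the 6 members included. Behind base 8 the members diverged. miR-16 and miR-195 were most alike, with 19 of 21 bases identical when aligned from the 5′ end, and miR-16 and miR-497 shared 11 of 22. miR-15a and miR-15b shared 18 of 22 bases. Whether the probes of the array tell such near-identical miRNAs apart was not tested.

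miR-15a lies on chromosome 14 (chr14:61632075-61632096, minus strand), 117 bases from the copy of miR-16 there (chr14:61631936-61631957), both within the span of the long non-coding RNA gene Dleu2. miR-15b (chr3:69009775-69009796, plus strand) and the other copy of miR-16 (chr3:69009918-69009939) are 121 bases apart within the span of Smc4, a gene of the condensin complex. The array measures the sum of both miR-16 copies, since their mature sequences are identical. miR-497 (chr11:70234730-70234751, plus strand) and miR-195 (chr11:70235062-70235082) are separated by 310 bases. miR-322 (chrX:53054306-53054327, minus strand) lies 256 bases from miR-503 within the span of the non-coding gene C430049B03Rik.

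The scanner files give the intensity of each spot, and each member has 20 spots, made of 2 probes with 10 spots each. Every intensity was divided by the brightness of its array, the 75th percentile over the spots of those 27 miRNAs that no array failed to detect, and set to at least 0.01 (the floor, a log2 of -6.64). Levels below are the log2 of the median of the 20 scaled spots. Brightness ran from 34.9 to 1212 intensity units and the number of miRNAs detected from 38 to 179 per array. Both extremes were M c-Raf arrays, replicate 6 being the dimmest and replicate 4 the brightest. M c-Raf replicate 6, M WT replicate 4 and F WT replicate 6 were the arrays under 60 units, and without these 3 arrays no other member than miR-16 was called in any comparison.

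Detection, as flagged by the extraction software, separated the members. miR-15b and miR-497 were detected on all 24 arrays, miR-15a on 23 and miR-195 on 21. miR-16 was detected on 12 arrays, namely 4 M c-Raf, 5 F c-Raf, 2 F WT and 1 M WT array, out of 6 in each group. miR-322 was detected on 8 arrays, of which 4 were M c-Raf, 3 were F c-Raf and 1 was F WT, with 0 of the 6 M WT arrays. In Fisher's exact test within each sex, none of the 8 comparisons passed (lowest exact p = 0.0606, adjusted p = 0.485, for miR-322 in males), and the exact p for miR-16 was 0.242 in either sex. With the sexes pooled, a comparison added after the data were seen, miR-16 was detected on 9 of 12 c-Raf arrays and 3 of 12 WT arrays, and miR-322 on 7 of 12 and 1 of 12. The adjusted exact p was 0.0783 for both. Detection also went with brightness: arrays with miR-16 detected had a brightness of 175 to 1212 units (median 348), those without it 34.9 to 268 (median 164). By group the median brightness was 433 units for M c-Raf against 176 for M WT, and 193 for F c-Raf against 265 for F WT. When spots well above background were counted instead, miR-16 was found on 2 M c-Raf, 0 M WT, 0 F c-Raf and 1 F WT arrays and miR-322 on 1 M c-Raf array, while miR-195 was found on 4 M c-Raf and 0 M WT arrays (Fisher's exact p = 0.0606, adjusted p = 0.485). The part of brightness in the detection counts was not tested.

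**Figure D1:**
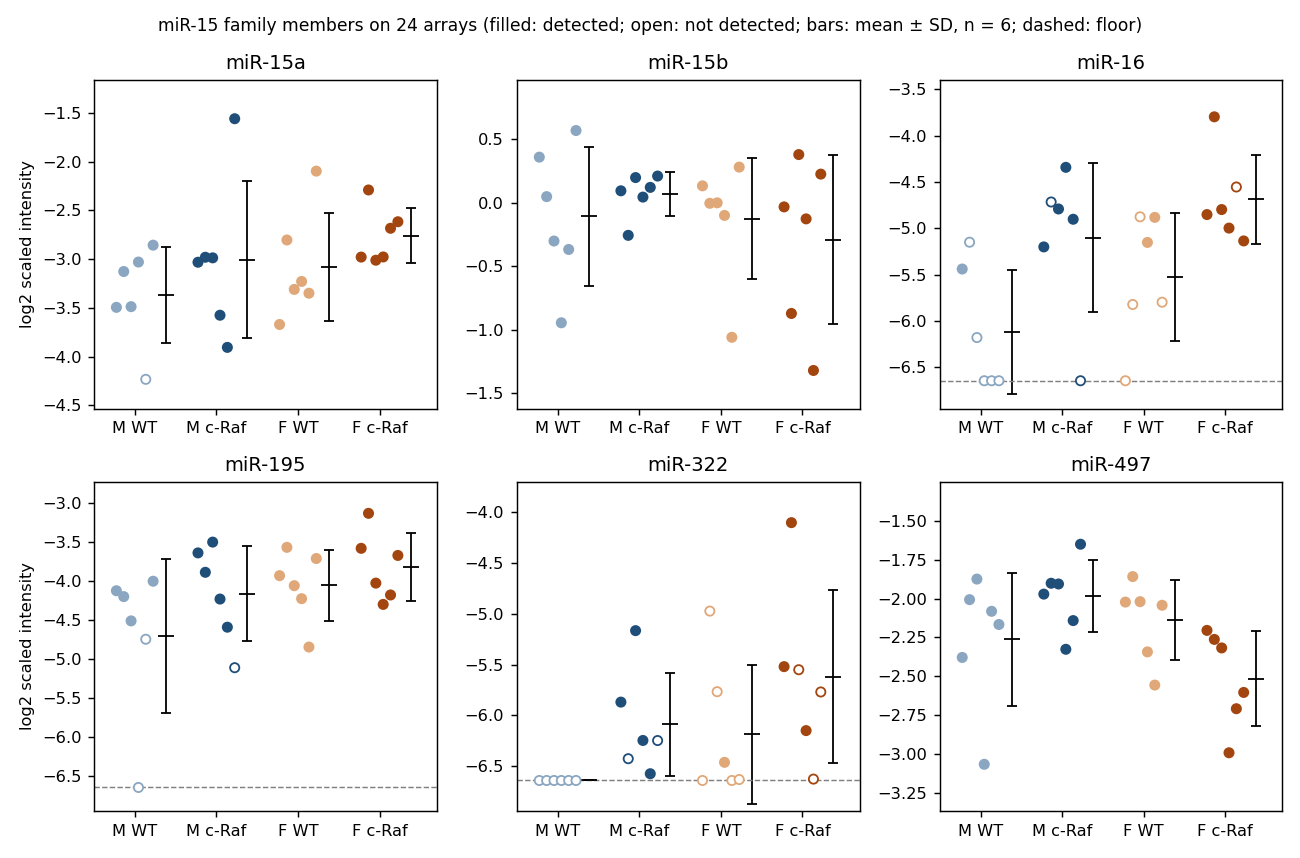
Log2 scaled intensity of each member (y axis, a scale of its own per panel) on the 6 arrays of each group (x axis, replicates 1 to 6 from left to right), with mean ± SD beside them; filled points are arrays on which the miRNA was detected, open points those on which it was not, and the dashed line is the floor of -6.64. miR-16 and miR-322 lie close to the floor, where all 6 M WT arrays of miR-322 stand, and the 4 groups overlap in the panels of miR-15a, miR-15b, miR-195 and miR-497.

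To ask whether the family moved with the transgene, c-Raf was compared with WT within each sex and over both, in 1 linear model across all 120 miRNAs detected on at least 6 arrays. All 6 members passed that filter, miR-16 and miR-322 mainly through their c-Raf arrays, since on WT arrays alone they were detected 3 times and once. Their fitted differences are set against WT arrays that were mostly not detected or at the floor, so their sizes depend on the floor and no fold is given for them. miR-16 was called as higher in c-Raf over both sexes, by a fitted 0.93 on the log2 scale, and none of the other 5 members was called in this or in either single-sex comparison at an adjusted p under 0.05. That is 1 of 6 members called, where 18.3% of all tested miRNAs were called, 12.5% as higher and 5.83% as lower in c-Raf, so the share called in the family was near that of the array as a whole. The median difference over both sexes was 0.37 on the log2 scale for the members and 0.09 for all 120 miRNAs. The member medians, here and in each sex, include miR-16 and miR-322, whose sizes depend on the floor. The other members differed over both sexes by 0.34 (miR-15a), 0.0044 (miR-15b), 0.39 (miR-195) and -0.047 (miR-497). In males all 6 members had a positive difference (median 0.45, against 0.13 over all), the sign of miR-322 being fixed by the floor of its M WT arrays, and none was called while 2.5% of all miRNAs were, 0.833% as higher and 1.67% as lower. In females 4 members were positive and 2 negative (median 0.28, against 0.03 over all), and again none was called, with 5% called over all, 3.33% as higher and 1.67% as lower. The single-sex comparisons each had 1 member with an unadjusted limma p under 0.05, which was miR-16. The methods' t-test was applied to the same values on the linear scale. It passed none of the members in males or females, neither at the thresholds of the methods nor after Benjamini-Hochberg adjustment. Over all tested miRNAs, 0 passed these thresholds in males and 2 in females, and 0 passed in either sex after adjustment. The absence of members is therefore near what the array as a whole gave. These values were scaled by the always-detected miRNAs, whereas the deposited table was scaled by all spots. The test therefore does not repeat the procedure of the paper, which lists miR-322 as significantly higher in transgenic males on these arrays. The paper also reports miR-322 as higher in both sexes by quantitative PCR, but not as significantly changed on its Affymetrix arrays. For miR-15a it reports no significant change on either array platform, and an increase by quantitative PCR in females. With the 75th percentile taken over all spots but controls, the limma difference of miR-322 in males was 3.58 (adjusted p = 0.105).

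**Figure D2:**
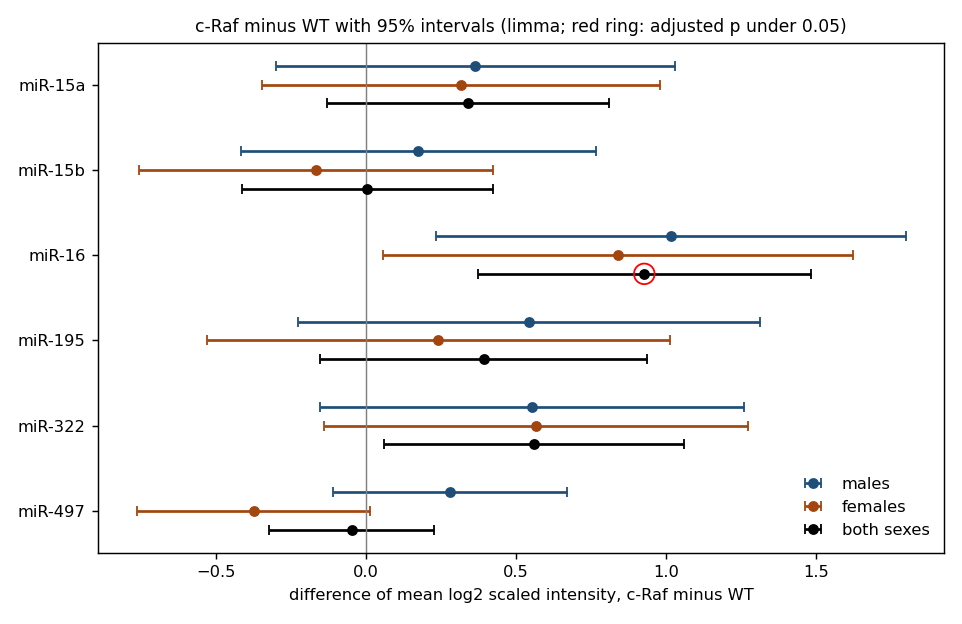
Difference of the mean log2 scaled intensity, c-Raf minus WT (x axis), for the 6 members (y axis) in males, females and both sexes pooled; points are limma estimates, bars their 95% intervals, and a red ring marks an adjusted p under 0.05. The ring is at miR-16 over both sexes, at 0.93, and the bars of miR-322 in males stand for a distance from the floor, and the intervals of miR-15a, miR-15b, miR-195 and miR-497 include 0 in all 3 comparisons.

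miR-16, the member that joins both miR-15 clusters, was dim throughout, at a spot median of -2.65 to 59.7 background-subtracted units. On M WT arrays its level ran from -6.64 to -5.15 (median -6.41), with 3 of 6 at the floor. On M c-Raf arrays it ran from -6.64 to -4.34 (median -4.85), the floor value being the dimmest array, replicate 6. The 2 male groups therefore overlapped, but 5 of 6 M c-Raf arrays lay at -5.20 or above and 5 of 6 M WT arrays at -5.44 or below. F WT arrays ran from -6.64 to -4.88 (median -5.47) and F c-Raf arrays from -5.14 to -3.80 (median -4.82), so the female groups overlapped as well. The order of mean levels was M WT at -6.12 ± 0.67 (SD, n = 6), F WT at -5.53 ± 0.69, M c-Raf at -5.10 ± 0.81 and F c-Raf at -4.69 ± 0.48. Neighbours in this order differed by less than the larger of their SDs, which held for the orders of all 6 members.

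The difference of miR-16 was 1.02 in males (SE 0.38, limma adjusted p = 0.137), 0.84 in females (SE 0.38, adjusted p = 0.279) and 0.93 over both sexes (SE 0.27, adjusted p = 0.0217). Compared on the same slide, c-Raf was higher on 5 of 6 slides in males, with both arrays at the floor on the sixth, and on 6 of 6 in females. Within the 4 scan batches the mean difference over both sexes was 1.23, 0.68, 1.02 and 0.98. With any 1 array left out it stayed between 0.82 and 1.08 and was still called (adjusted p 0.00242 to 0.0439). Without M c-Raf replicate 6 the difference in males rose to 1.33 and was called as well (adjusted p = 0.0310). Without the 3 arrays under 60 units, the difference over both sexes was 1.00 (adjusted p = 0.00710). All these comparisons kept the filter, which miR-16 passed mainly through c-Raf arrays, and the floor. They therefore do not test how far the call rests on either.

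The size of the miR-16 difference depended on the probe. The brighter of its 2 probes had mean levels of -5.55 ± 0.91 (M WT), -4.58 ± 1.05 (M c-Raf), -4.64 ± 0.53 (F WT) and -3.94 ± 0.37 (F c-Raf, SD, n = 6 each), a difference of 0.96 in males and 0.70 in females. The dimmer probe, at the floor on 8 arrays, gave 0.62 and 0.15. The brighter probe alone gave 0.83 over both sexes (adjusted p = 0.0517) and the mean of the log2 values over both probes 0.61 (adjusted p = 0.0723), so the call was lost with either summary, as it was with the mean over probes without outlier spots (0.60, adjusted p = 0.0771). It was also lost without the filter on detection (adjusted p = 0.125), with a floor of 0.001 (1.18, adjusted p = 0.206), with the 75th percentile taken over all spots but controls (1.70, adjusted p = 0.538), with the deposited table (1.70, adjusted p = 0.520), with background correction by normexp, where the difference was 0.00083, and with a floor of 0.1, which leaves no miR-16 value above it.

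**Figure D3:**
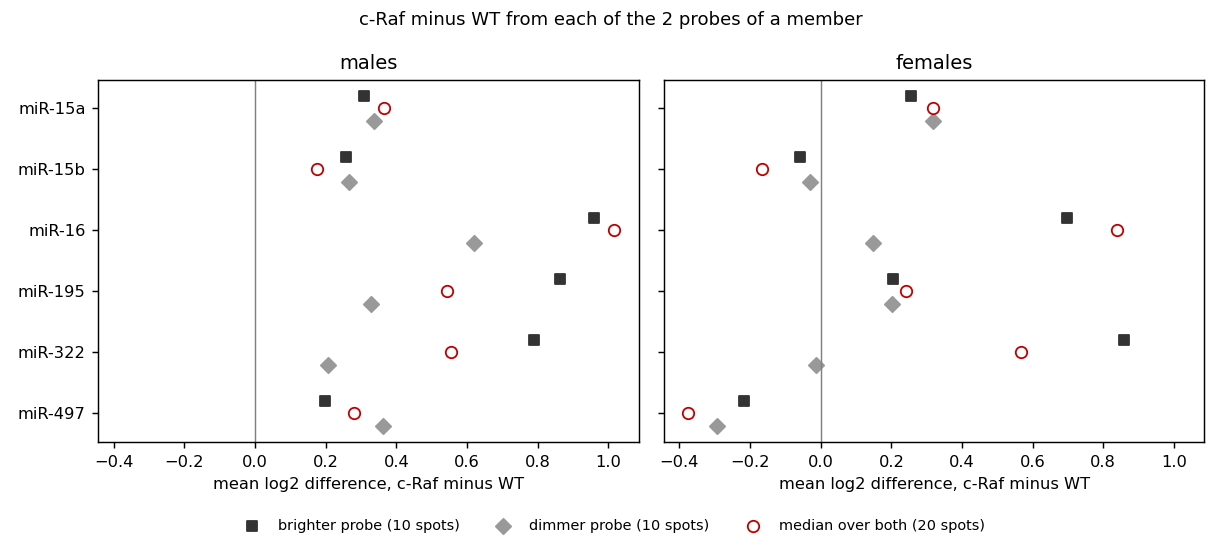
Difference of mean log2 scaled intensity, c-Raf minus WT (x axis), in males and females, for the brighter probe, the dimmer probe and the median over the 20 spots of each member (y axis). The probes of miR-15a, miR-15b and miR-497 lie close together, while the dimmer probes of miR-16 and miR-322 in both sexes, and that of miR-195 in males, show smaller differences than the brighter ones.

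miR-15a, the partner of miR-16 on chromosome 14, did not pass the test. M WT arrays ran from -4.23 to -2.86 (median -3.31) and M c-Raf arrays from -3.91 to -1.56 (median -3.01). F WT arrays ran from -3.67 to -2.10 (median -3.27) and F c-Raf arrays from -3.01 to -2.29 (median -2.83). The groups overlapped in both sexes, and the highest value, -1.56, was that of the dimmest array. The difference was 0.36 in males (95% interval -0.30 to 1.03, adjusted p = 0.432) and 0.32 in females (-0.35 to 0.98, adjusted p = 0.713), with c-Raf higher on 5 of 6 slides in each sex. Without M c-Raf replicate 6 the male difference was 0.075. Its 2 probes correlated at r = 0.939 over the 24 arrays and gave 0.31 and 0.34 in males and 0.26 and 0.32 in females.

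The level of miR-15a fell as brightness rose. Over the 24 arrays, Pearson's r with log2 brightness was -0.642 (permutation p = 0.00094, adjusted p = 0.00564 over the 6 members) and Spearman's rho -0.627 (permutation p = 0.00152). Leaving out the brightest and the dimmest array, which lay farthest from the median and were both M c-Raf, r was -0.491 over the rest. Within scan batch 2 r was -0.831, but within scan batch 4 it was -0.123, so the relation was not seen in both batches of 8 arrays. The other batches held 4 arrays each, which is too few. Since the levels were divided by brightness, both measures share that quantity. The permutation p makes no allowance for this, nor for the groups and slides of the arrays. For miR-16 r was 0.520 (permutation p = 0.00904, adjusted p = 0.0271) and rho 0.366 (permutation p = 0.0786), with r = 0.370 without the same 2 arrays and 0.492 and 0.165 within scan batches 2 and 4. For the other 4 members r lay between -0.0247 and 0.285. With log2 brightness as a covariate, an alternative added after the data were seen, miR-15a was called in males (0.82, adjusted p = 0.0413) and over both sexes (0.52, adjusted p = 0.0152), and miR-16 stayed called over both sexes (0.78, adjusted p = 0.0270). Without the 3 arrays under 60 units, by contrast, the difference of miR-15a was 0.14 in males (adjusted p = 0.725) and 0.51 in females (adjusted p = 0.173).

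miR-15b, the partner of miR-16 on chromosome 3, was detected on every array and did not pass the test. M WT arrays ran from -0.94 to 0.57 (median -0.12) and M c-Raf arrays from -0.25 to 0.21 (median 0.11). F WT arrays ran from -1.06 to 0.28 (median -0.00073) and F c-Raf arrays from -1.32 to 0.38 (median -0.078). All groups overlapped. The difference was 0.18 in males (95% interval -0.42 to 0.77), -0.17 in females (-0.76 to 0.43) and 0.0044 over both sexes (-0.41 to 0.42, adjusted p = 0.999), so a change of more than 1.34-fold in either direction lay outside the interval over both sexes. The male difference was 0.0072 without M WT replicate 4.

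The 2 probes of miR-15b lay 2.81 apart in median log2 level, with 10 spots each, so the median over 20 spots fell into the gap between them. Taken alone, the brighter probe varied little in 3 of the groups, at 1.12 ± 0.16 (SD, n = 6) for M c-Raf, 1.05 ± 0.21 for F WT and 0.99 ± 0.26 for F c-Raf, against 0.86 ± 0.59 for M WT. For the brighter probe the male difference was 0.26 and the female one -0.058, and for the dimmer one 0.27 and -0.029. When the spots flagged as outliers were left out, the difference over both sexes became -0.98 (adjusted p = 0.0576), whereas the mean over probes gave 0.11 (adjusted p = 0.574). The gap between the probes was 3.03 for miR-195, 2.67 for miR-497, 2.00 for miR-16, 0.95 for miR-322 and 0.22 for miR-15a.

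miR-195 and miR-497, which come from the cluster on chromosome 11, did not pass the test either. For miR-195, M WT arrays ran from -6.64 to -4.00 (median -4.36) and M c-Raf arrays from -5.11 to -3.50 (median -4.06). F WT arrays ran from -4.85 to -3.57 (median -4.00) and F c-Raf arrays from -4.30 to -3.14 (median -3.85), so that the groups overlapped in both sexes. Its difference was 0.54 in males (95% interval -0.23 to 1.32, adjusted p = 0.333), 0.24 in females (-0.53 to 1.01, adjusted p = 0.847) and 0.39 over both sexes (adjusted p = 0.332). The value at the floor was that of M WT replicate 4, and without this array the male difference was 0.16, while without the 3 arrays under 60 units it was 0.35. The brighter probe gave 0.86 in males and the dimmer one 0.33, against 0.21 and 0.20 in females. With outlier spots left out the male difference was -0.021 and the female one -0.036.

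For miR-497, M WT arrays ran from -3.07 to -1.87 (median -2.12) and M c-Raf arrays from -2.33 to -1.65 (median -1.94). F WT arrays ran from -2.56 to -1.86 (median -2.03) and F c-Raf arrays from -2.99 to -2.20 (median -2.46), and the groups overlapped in both sexes. Like that of miR-15b, its difference had opposite signs in the sexes. In males it was 0.28 (95% interval -0.11 to 0.67, adjusted p = 0.333) with c-Raf higher on 4 of 6 slides, and in females -0.37 (-0.76 to 0.01, adjusted p = 0.391) with c-Raf lower on 6 of 6 slides. The male difference was 0.12 without M WT replicate 4 and 0.052 without the 3 arrays under 60 units, and without these 3 the difference over both sexes moved from -0.047 to -0.15. The test of the difference between the sexes gave 0.65 (SE 0.27, limma adjusted p = 0.872), which did not pass, although miR-497 had the second lowest of all 120 p-values there.

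The sexes were also compared within each genotype. Within WT none of the 6 members was called (limma adjusted p 0.562 to 0.969), none had an unadjusted p under 0.05, and 0% of all miRNAs were called. Within c-Raf none was called either (adjusted p 0.206 to 0.962), with 2.5% called over all, each as lower in males. The lowest p was that of miR-497, which was higher in M c-Raf than in F c-Raf by 0.53 (SE 0.19, unadjusted p = 0.00967, adjusted p = 0.206) and higher on 6 of 6 slides, by 0.23 to 0.95. Its mean level was -1.98 ± 0.23 (SD, n = 6) for M c-Raf and -2.51 ± 0.31 for F c-Raf, and the arrays of both groups overlapped. This difference was called with the replicate number, which is the slide, as a block (adjusted p = 0.0276), with the scan batch as a block (adjusted p = 0.0276) and with array weights (adjusted p = 0.0108), and also without M WT replicate 4 (adjusted p = 0.0427), an array that is in neither group but enters the common spread. When the c-Raf effect was compared between males and females, 0% of all miRNAs were called and the adjusted p of the members ran from 0.872 to 0.996.

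miR-322, the X-linked member, was detected on the fewest arrays. On all 6 M WT arrays it stood at the floor and was not detected. M c-Raf arrays ran from -6.58 to -5.17 (median -6.25), F WT arrays from -6.64 to -4.97 (median -6.55) and F c-Raf arrays from -6.63 to -4.10 (median -5.66). The male groups did not overlap, which held for 2.5% of all tested miRNAs, but the lowest M c-Raf value, -6.58, was close to the floor. No lower bound of a fold can be given for males. The mean M c-Raf level, -6.09, lay under the dimmest spot well above background of the M WT arrays, -5.46 on average. The male value of the fit is therefore a distance from the floor and not a measured difference, and it was not called (adjusted p = 0.304). In females, where 2 F WT arrays were at the floor, the fitted difference was 0.57 (adjusted p = 0.461), and 0.26 without F c-Raf replicate 2. Over both sexes the fit, which includes the male distance, gave no call (adjusted p = 0.109).

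The result for miR-322 moved with the treatment of low values. With a floor of 0.001 the fitted value was 2.32 in males (adjusted p = 0.0109) and 1.54 over both sexes (adjusted p = 0.00903), and both were called. The M WT arrays, with spot medians of -0.209 to 1.90 units, were still not detected. The male value therefore stayed a distance from undetected signals, which grows as the floor is lowered. The brighter probe alone gave 0.79 in males and 0.86 in females, and over both sexes 0.82, which was called (adjusted p = 0.0197). The dimmer probe, at the floor on 14 arrays, gave 0.21 and -0.01. The difference over both sexes was also called with the scan batch as a block (adjusted p = 0.0485) and without F WT replicate 2 (0.68, adjusted p = 0.0375). With a floor of 0.1 no value of miR-322 was left above the floor. All these calls of miR-322 kept the filter, which it passed mainly through c-Raf arrays. They therefore do not test how far the calls rest on the filter.

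Whether partners from a common transcript kept their ratio was asked with the difference of their log2 levels on the same array, in which the scaling of the array cancels unless a value is at the floor. miR-195 minus miR-497 ran from -2.29 to -1.67 on F WT arrays (median -1.90) and from -1.71 to -0.87 on F c-Raf arrays (median -1.34). The 2 groups overlapped between -1.71 and -1.67. The means were -1.92 ± 0.23 and -1.30 ± 0.30 (SD, n = 6 each), a rise of 0.62 in F c-Raf (exact two-sided permutation p = 0.00433, adjusted p = 0.0260 over 6 tests, where the smallest p that 924 divisions allow is 0.00216). In males the same difference was -2.44 ± 0.68 for M WT and -2.18 ± 0.70 for M c-Raf (exact permutation p = 0.506). The female result passed by a narrow margin. It was lost on leaving out any of 10 of the 12 female arrays (adjusted exact p = 0.0519, all but F c-Raf replicate 3 and F WT replicate 6), and it was 0.42 with the brighter probes alone (adjusted exact p = 0.0714), 0.46 with the mean over probes (adjusted exact p = 0.0649) and 0.25 without outlier spots (adjusted exact p = 0.662). In the paired test within slides it had the smallest p that 6 pairs allow (exact sign-flip p = 0.0312, adjusted p = 0.0938).

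For the clusters with miR-16, the difference to the partner was smaller in c-Raf in both sexes without passing the test. Since the array sums both miR-16 copies, these differences are not the ratio of partners from 1 transcript and cannot answer that question. miR-15a minus miR-16 was 2.09 ± 1.56 for M c-Raf and 2.75 ± 0.79 for M WT (SD, n = 6 each, exact permutation p = 0.379), and 1.93 ± 0.34 for F c-Raf and 2.45 ± 0.90 for F WT (exact permutation p = 0.203). miR-15b minus miR-16 was 5.17 ± 0.90 in c-Raf and 6.01 ± 0.68 in WT among males (exact permutation p = 0.0952), and 4.40 ± 1.05 and 5.41 ± 1.04 among females (exact permutation p = 0.128). The adjusted exact p of these 4 tests ran from 0.255 to 0.455. Without M c-Raf replicate 6, on which miR-16 was at the floor, both male differences passed, at -1.25 (adjusted exact p = 0.0346) and -1.18 (adjusted exact p = 0.0260). The 3 of 6 M WT arrays with miR-16 at the floor were kept there, so both values depend on the floor. miR-322 could not be set against miR-503, which was detected on no array.

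**Figure D4:**
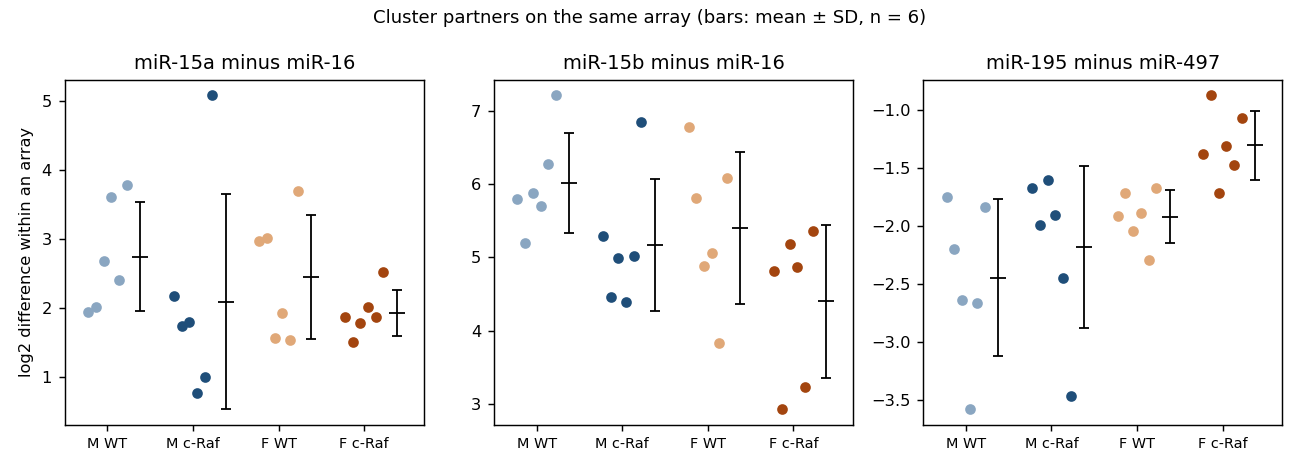
Difference of the log2 scaled intensities of cluster partners on the same array (y axis) for the 4 groups (x axis, replicates 1 to 6 from left to right), with mean ± SD of 6 arrays. miR-195 minus miR-497 is higher in F c-Raf (mean -1.30) than in F WT (mean -1.92), and the highest M c-Raf value of both differences with miR-16 is that of replicate 6.

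Among the 15 pairs of members, Pearson's r over the 24 arrays ran from -0.224 (miR-15b and miR-16) to 0.564 (miR-195 and miR-322). Within groups, with each array taken relative to its group mean, miR-195 and miR-497 had the highest r, 0.636, while miR-15a and miR-16 were at -0.294 and miR-15b and miR-16 at -0.240. These values are descriptions over arrays that share the division by brightness.

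The miRNAs most like each member over the 24 arrays were named by the same measure among the tested miRNAs outside the family. For miR-15a they were miR-200c (r = 0.830), miR-715 (0.689) and miR-30b* (0.565), and for miR-15b miR-151-5p (0.542), miR-100 (0.531) and miR-99a (0.465). For miR-16 they were miR-200a (r = 0.763), miR-26b (0.746) and miR-126-3p (0.709), detected on 11, 12 and 23 arrays. All were called as higher in c-Raf over both sexes, by 0.73, 0.94 and 0.75 (limma adjusted p = 0.0217, 0.00755 and 0.0217). The r was taken with the group differences left in, which favours miRNAs that differ between the groups as miR-16 does. Their calls are therefore not separate evidence. miR-195 was most like let-7i (r = 0.809), miR-24 (0.808) and miR-34b-5p (0.794), and miR-322 most like miR-146a (0.665), miR-26b (0.613) and miR-429 (0.602). For miR-497 they were miR-34b-5p (0.626), miR-99a (0.618) and miR-155 (0.602).

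Markers of the cell types that dissected lung tissue can hold were examined beside these values. Of the 5 epithelial miRNAs of the miR-200 family, miR-200b and miR-200c were detected on all 24 arrays, and of the 4 tested 3 were called as higher in c-Raf over both sexes: miR-200a by 0.73, miR-200b by 0.75 (adjusted p = 0.0482) and miR-429 by 0.73 (adjusted p = 0.0180). The log2 of their summed level ran from -0.71 to 0.47 for M WT, -0.27 to 0.69 for F WT, -0.58 to 0.98 for M c-Raf and 0.17 to 0.90 for F c-Raf. Of the 3 called, miR-200a was detected on 4 male and 5 female c-Raf arrays but on 0 and 2 WT arrays. For miR-429 the counts were 4 and 5 against 1 and 3. Both therefore passed the filter mainly through c-Raf arrays, as miR-16 did. The mean miR-200a level in M WT, -6.28, was close to the floor. miR-200c, the brightest of the 4 tested, was not called (0.23, adjusted p = 0.461). Over all tested miRNAs, 12.5% were called as higher. Of the endothelial pair, miR-126-3p was higher in c-Raf by 0.75, and miR-126-5p was detected on no array. Their summed level ran from -3.76 to -1.63, -2.16 to -1.64, -2.34 to -1.12 and -1.81 to -0.95 in the same order of groups. The mesenchymal miR-214 was lower over both sexes by -0.86 (adjusted p = 0.000153) and the erythroid miR-486 by -1.10 (adjusted p = 0.00213). The other miRNA tested of each list had a difference of the opposite sign that was not called, at 0.21 for the mesenchymal miR-199a-3p (adjusted p = 0.293) and 0.38 for the erythroid miR-451 (adjusted p = 0.389), and the erythroid miR-144 was detected on no array. The summed mesenchymal level ran from -1.88 to -1.11, -2.14 to -1.51, -2.18 to -1.91 and -2.16 to -1.88, and the erythroid one from -3.19 to -0.94, -3.04 to -1.98, -3.29 to -2.44 and -3.29 to -2.34 in the same order. The smooth muscle miRNAs miR-143 and miR-145 were detected on 3 arrays each, and of the leukocyte miRNAs miR-142-3p and miR-142-5p on none. None of the 3 leukocyte miRNAs tested was called, and the summed leukocyte level ran from -3.86 to -2.71, -3.76 to -3.47, -3.73 to -2.27 and -3.77 to -3.03. The part of these cell types in the level of miR-16 was not tested.

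Relatives of the family were examined as well. miR-503 has a closely similar seed, and miR-103 and miR-107 carry the 7 letters of the seed shifted to bases 1 to 7, as shown by their RefSeq sequences with these letters in capitals.
miR-503: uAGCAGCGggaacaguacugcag
miR-103: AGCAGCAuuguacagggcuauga
miR-107: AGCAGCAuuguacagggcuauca
Of the 10 listed partners of the cluster of miR-322 on the X chromosome, which include miR-503, miR-351 and the miR-542 and miR-450 miRNAs, miR-542-5p was detected on 4 arrays and the other 9 on none, so that 0 of 10 were tested. These 10 include miR-322*, the passenger strand of miR-322. The passenger strands of miR-15a, miR-15b and miR-16 were on the array too, and none was detected. miR-103 and miR-107, which come from introns of the Pank genes, were detected on 23 and 22 arrays. miR-103 had mean levels of -3.09 ± 0.42 (M WT; SD, n = 6), -2.78 ± 0.32 (M c-Raf), -2.79 ± 0.20 (F WT) and -2.70 ± 0.12 (F c-Raf), a difference of 0.20 over both sexes (SE 0.12, limma adjusted p = 0.301). For miR-107 the difference was 0.20 as well (SE 0.14, adjusted p = 0.368), at -3.83 ± 0.61, -3.37 ± 0.11, -3.51 ± 0.18 and -3.56 ± 0.20 in the same order of groups. Neither was called in a single sex.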

How the data were processed

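The authors deposited 1-colour scanner files of 24 mouse miRNA arrays with spot intensity, background-subtracted by Agilent Feature Extraction (10.7.3.1 per the file headers, 8.1.3 per the submitters' processing notes), not scaled between arrays, on a design for mm9. They also deposited a table of processed intensity. It held the spot median of each miRNA times 1000 over the 75th percentile of all spots of an array, for 99.964% of values within 1%, with uncentred linear columns of median 299 to 2273; 4 names were not matched, and 0 columns were left unused. The arrays came as 6 slides, numbered as the replicates, in 4 scan batches, and every slide held each group at 1 fixed position, so position and group cannot be told apart.

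Control spots were left out, and spots flagged as outliers (2.79%) were kept. limma 3.58.1 (R 4.3.3, lmFit and eBayes) fitted 1 mean per group; p-values are two-sided, Benjamini-Hochberg adjusted over the 120 miRNAs detected on at least 6 arrays, and called under 0.05. Fisher's exact test and the exact permutation test of cluster partners used scipy 1.17.1. The sign-flip test, over all sign patterns, and the permutation p of correlations with brightness, from random permutations, used numpy 2.4.6. The scripts were tested on simulated data. For normexp (offset 50) the median spot signal was used. The floor, worth 0.349 to 12.1 units by array, understates changes of dim miRNAs; the number of arrays limits precision. The replicates are separate animals. Members, lists and the rule for names (members, relatives, markers, the 3 miRNAs most like each member) were chosen with earlier results of these data known. Alternatives covered scaling, background, floor, filter, spot summary, blocks, weights, the methods' t-test and single arrays left out.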

Additional observations from a re-analysis of the deposited data

Results flagged for a closer look

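Of 23 groups of 6 arrays examined over the 6 members, 4 held an array that lay far from the other 5 by Dixon's criterion, where chance gives about 5%. miR-15b was at -1.06 on F WT replicate 5, with the nearest other array at -0.10, and at -0.25 on M c-Raf replicate 2, with the nearest at 0.05. miR-16 was at the floor of -6.64 on M c-Raf replicate 6, the dimmest array, with the nearest at -5.20. miR-195 was at the floor of -6.64 on M WT replicate 4, the second dimmest array, with the nearest at -4.75. No member passed the test that compared the c-Raf effect of males with that of females.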

How the results depend on the processing

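The call of miR-16 over both sexes held in 10 of 19 alternatives, with a difference of 0.58 to 1.16 there, and without any single array. Members called over both sexes numbered 0 with the 75th percentile of all spots but controls (all-spot scaling), normexp, a floor of 0.1, no filter, the deposited table, and the mean over probes with or without outlier spots, and 2 with the scan batch block (miR-322 added) and the brightness covariate (miR-15a added); with a floor of 0.001 and with the brighter probe alone the 1 member called was miR-322 and not miR-16. For males 1 member was called with a floor of 0.001 (miR-322) and with the brightness covariate (miR-15a), and within c-Raf 1 between the sexes (miR-497) with the replicate block, the scan batch block and array weights. Of all 120 miRNAs, 5 and 3 were called in these male settings, and 4, 4 and 7 in these settings within c-Raf. In the alternatives run, no member was called for females, for the c-Raf effect of males against that of females, or between WT males and WT females. Over all miRNAs, 22 were called over both sexes, but 0 with normexp and the deposited table, 3 with all-spot scaling, 7 without a filter, 9 with a floor of 0.1, 10 with a floor of 0.001, 14 with quantile normalization and at most 32 (scan batch block). miR-322 could not be fitted with detection on at least 12 arrays.

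Scalings moved the median of all miRNAs, to 1.01 in males and 0.61 over both sexes with all-spot scaling, and to -0.79 (males), 0.62 (females) and -0.080 (both) with normexp. Against these medians, normexp gave -0.50 for miR-15a, -0.70 for miR-16, -0.61 for miR-195, -0.88 for miR-322 and -0.29 for miR-497 in males, 0.070 for miR-15b and 0.31 for miR-497 in females, and -0.073 for miR-322 and 0.0077 for miR-497 over both sexes. For miR-497 normexp also turned the c-Raf effect of males minus that of females (-0.60) and the sex difference in WT (0.26) and in c-Raf (-0.34). miR-497 over both sexes turned to 0.36 with all-spot scaling, 0.35 with the deposited table, 0.0084 with quantile normalization, 0.013 with the mean over probes, 0.017 with that mean without outlier spots and 0.14 without outlier spots. Without outlier spots miR-15b was -0.76 in males and -0.98 over both sexes, and miR-195 -0.021 (males), -0.036 (females) and -0.029 (both). Array weights gave miR-15b -0.080 in males and -0.10 over both sexes, arrays over 60 units -0.021 and -0.053 and, for miR-497 within WT, 0.058, and the brightness covariate -0.013 for miR-15b over both sexes. Apart from the blocks and the arrays left out, the cause was not tested.

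Among cluster partners, the difference of miR-15a minus miR-16 turned to 0.20 (normexp) and 0.30 (floor of 0.1) in males and 0.25 (floor of 0.1) in females, that of miR-15b minus miR-16 to 0.78 (normexp) and 0.18 (floor of 0.1) in males, and that of miR-195 minus miR-497 in males to -0.32 (normexp), -0.20 (floor of 0.1) and -0.59 (without outlier spots). Without outlier spots, miR-15b minus miR-16 passed in males (-1.85) and females (-2.42). The difference of miR-15b alone was then -0.76 in males and -1.20 in females, against 0.26 and -0.043 with the mean over probes. Its median over spots falls into the gap between its probes, so this pass depends on the spot summary. miR-195 minus miR-497 in females no longer passed with normexp (0.35), a floor of 0.1 (0.39), the brighter probe (0.42), the mean over probes (0.46), without outlier spots (0.25) and with the replicate block (0.62). Detection of miR-16 in females turned to -1 array when spots well above background were counted, at 0 of 6 F c-Raf and 1 of 6 F WT arrays.

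With single arrays left out, members called ranged from 0 to 1 in males, 1 to 2 over both sexes and 0 to 1 between the sexes within c-Raf. miR-15b ranged from -0.35 to 0.040 in females and -0.089 to 0.11 over both sexes, and miR-497 from -0.13 to 0.00037 over both sexes and -0.21 to 0.039 within WT. The differences of partners ranged from -1.25 to -0.39 (miR-15a minus miR-16, males), -1.18 to -0.60 (miR-15b minus miR-16, males) and 0.53 to 0.70 (miR-195 minus miR-497, females).

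Same-numbered arrays shared a slide but deviated together unevenly, at correlations of -0.354 to 0.702 over pairs of groups. With the replicate block, the calls of miR-497 within c-Raf (adjusted p = 0.0276) and of miR-195 minus miR-497 in females (adjusted exact p = 0.0938) changed, and no other call of a member did. Depth limits miR-16 and miR-322 most, with 5 and 8 arrays at the floor.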
